A study of Mus musculus with 12 samples.

Results

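The genes described here supply and shuttle high-energy phosphate in muscle. They are the 10 genes Ckm, Ckmt2, Ckb, Slc6a8, Gamt, Ampd1, Ampd3, Adssl1, Ak1 and Pnp, taken by symbol from a table of 28116 gene symbols. They were selected on measured levels, in part because Ckb and Pnp were much lower, and the muscle isoforms higher, at the later time point, so their differences between days are given as a description without a test. The muscles came from 4-month-old mice of the dystrophin-deficient strain C57BL/10ScSn-Dmdmdx/J, a model of Duchenne muscular dystrophy. All 12 tibialis anterior muscles were injured with cardiotoxin, which kills fibres and so sets off their regrowth. The same injection carried either anti-miR106b, which blocks miR-106b, or the control anti-miR-Scrambled. Muscles were taken on day 3 or day 7 by the sample labels (the series' design text has 5 days in 1 place for the later time), which gave 4 groups of 3 animals, each animal being 1 library. Uninjured muscle, muscle without an injected inhibitor and mice with intact dystrophin were not analysed here, so every value belongs to injured mdx muscle. Cardiotoxin leaves immune cells, satellite cells, vessels and nerves in the sample beside surviving and new fibres.

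Creatine kinases move a phosphate group between ATP and creatine, so that a large store of phosphocreatine can refill ATP during contraction. Ckm is the muscle isoform in the cytosol of the fibre, Ckmt2 is the isoform in muscle mitochondria, and Ckb is the brain-type isoform, which is also made by myoblasts and many cells that are not muscle. Gamt makes creatine and Slc6a8 carries it into the cell. The purine nucleotide cycle turns AMP into IMP and back: the AMP deaminases (Ampd1 in muscle, Ampd3 in blood cells and other tissues) remove the amino group, and adenylosuccinate synthase (Adssl1 in muscle) with adenylosuccinate lyase (Adsl) restores AMP. Ak1 is the adenylate kinase of the muscle cytosol, which turns a pair of ADP molecules into ATP and AMP. Pnp, purine nucleoside phosphorylase, splits inosine and guanosine on the way to purine salvage or breakdown.

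The promoters of the 3 creatine kinases are shown because these genes stand at opposite ends of the results below. Each window holds 250 bases before and 50 bases after the RefSeq start (GRCm38.p6). Capitals mark matches to the E-box (CANNTG, the letters that myogenic factors of the MyoD family bind) or to the MEF2 motif. Both motifs were searched on both strands together with the CArG box. The windows lie at chr7:19410844-19411143 (plus strand) for Ckm, chr13:91876836-91877135 (minus strand) for Ckmt2 and chr12:111672289-111672588 (minus strand) for Ckb.
Ckm: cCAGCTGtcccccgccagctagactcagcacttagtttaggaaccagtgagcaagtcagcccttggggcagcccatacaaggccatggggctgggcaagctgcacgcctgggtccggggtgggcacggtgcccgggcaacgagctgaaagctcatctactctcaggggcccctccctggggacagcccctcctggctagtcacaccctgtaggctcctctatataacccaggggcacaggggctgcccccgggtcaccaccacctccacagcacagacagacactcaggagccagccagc
Ckmt2: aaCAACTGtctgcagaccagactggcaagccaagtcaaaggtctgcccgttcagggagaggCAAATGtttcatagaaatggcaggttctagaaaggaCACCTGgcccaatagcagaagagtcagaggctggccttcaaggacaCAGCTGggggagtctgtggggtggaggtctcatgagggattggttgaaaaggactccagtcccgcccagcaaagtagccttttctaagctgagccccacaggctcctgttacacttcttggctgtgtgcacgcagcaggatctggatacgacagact
Ckb: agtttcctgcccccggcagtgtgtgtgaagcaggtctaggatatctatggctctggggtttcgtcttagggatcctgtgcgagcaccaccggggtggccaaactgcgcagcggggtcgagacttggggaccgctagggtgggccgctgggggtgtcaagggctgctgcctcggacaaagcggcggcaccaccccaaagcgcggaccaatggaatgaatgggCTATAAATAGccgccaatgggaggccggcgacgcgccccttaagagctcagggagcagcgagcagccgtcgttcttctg
The Ckm window holds 1 E-box, CAGCTG, which begins 249 bases before the start. The Ckmt2 window holds 4, which begin 248, 189, 153 and 107 bases before the start. The Ckb window holds no E-box and has 1 MEF2 motif beginning 29 bases before the start. That match contains the letters TATAAA, the TATA box, so the 2 overlap. Of 32851 promoter windows of the same length, 72.3% held an E-box, 6.49% held 4 or more, 3.19% held a MEF2 motif, 1.63% a CArG box and 13.6% the letters TATAAA. No CArG box lay in these 3 windows.

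The inhibitor was aimed at miR-106b, so its 5p strand (RefSeq, chr5:138165787-138165807, minus strand) is shown with the only matches to its whole seed site among the 10 genes. The labels do not give the strand of miR-106b that the inhibitor binds. In the microRNA, capitals mark the seed, bases 2 to 8. In the genes' 3′ UTRs (GENCODE M21), capitals mark GCACTTTA, which pairs with the seed and has an A opposite base 1.
miR-106b-5p: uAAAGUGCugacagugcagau
Ampd3: caattttggttGCACTTTAcgaacatgctc
Pnp: tctgttttccaGCACTTTAcatatttgagt
The site in Ampd3 begins at base 139 of a UTR of 1495 bases, and that in Pnp at base 1730 of 1791. The other 8 genes had no match to the 6-base core CACTTT in their longest annotated 3′ UTR. Among 12915 tested genes with a 3′ UTR, 4.42% held the 8-base site and 41.7% the 6-base core.

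The libraries held 28857739 to 42825246 counted reads. Levels are given as log2 CPM, counts relative to library size with the authors' scaling between libraries, and a difference of 1 on this scale is 2-fold. All 10 genes were above 1 CPM in all 12 libraries. The fewest reads were 160 for Pnp and the most 644777 for Ckm. Replicates of the scrambled day 7 group differed most among themselves, with a chi-square per gene of 24.2 to 60.1 between pairs against 4.90 to 24.2 in the other groups. Its replicate 1 had the lowest summed level of regenerating fibre markers, 731 CPM against 1583 and 2114 in the other two. Marker genes of muscle and other cells differed between the arms at day 3 as well. Over all tested genes, 16.3% passed as higher and 19.4% as lower at day 3. All 12 mature fast fibre markers, such as Acta1 and Pygm, passed the test as lower in inhibited muscle, and their summed level was 71438 to 77743 CPM against 109930 to 129844 CPM in scrambled muscle. Of 13 macrophage markers, 7 passed as higher and none as lower, with sums of 4672 to 5094 CPM against 3339 to 3405 CPM. Of 9 regenerating fibre markers, 5 passed as higher and none as lower, with sums of 4789 to 5207 CPM against 2981 to 3828 CPM. Of these markers, Chrna1, Chrnd, Chrng, Ncam1 and Myog are known to rise in denervated fibres too. Of 6 denervation and atrophy markers, 3 passed as higher and none as lower, with overlapping sums. Of 7 slow fibre markers, 3 passed as higher and none as lower, with sums of 1254 to 1440 CPM against 659 to 910 CPM. No marker of these lists was at 0 in all libraries. Mitochondrial transcripts took 4.80% to 4.83% of reads in inhibited and 7.54% to 7.76% in scrambled muscle at day 3. The part that these differences have in the results below was not tested. In whole muscle, fewer cells of a type and less RNA per cell cannot be told apart.

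**Figure D1:**
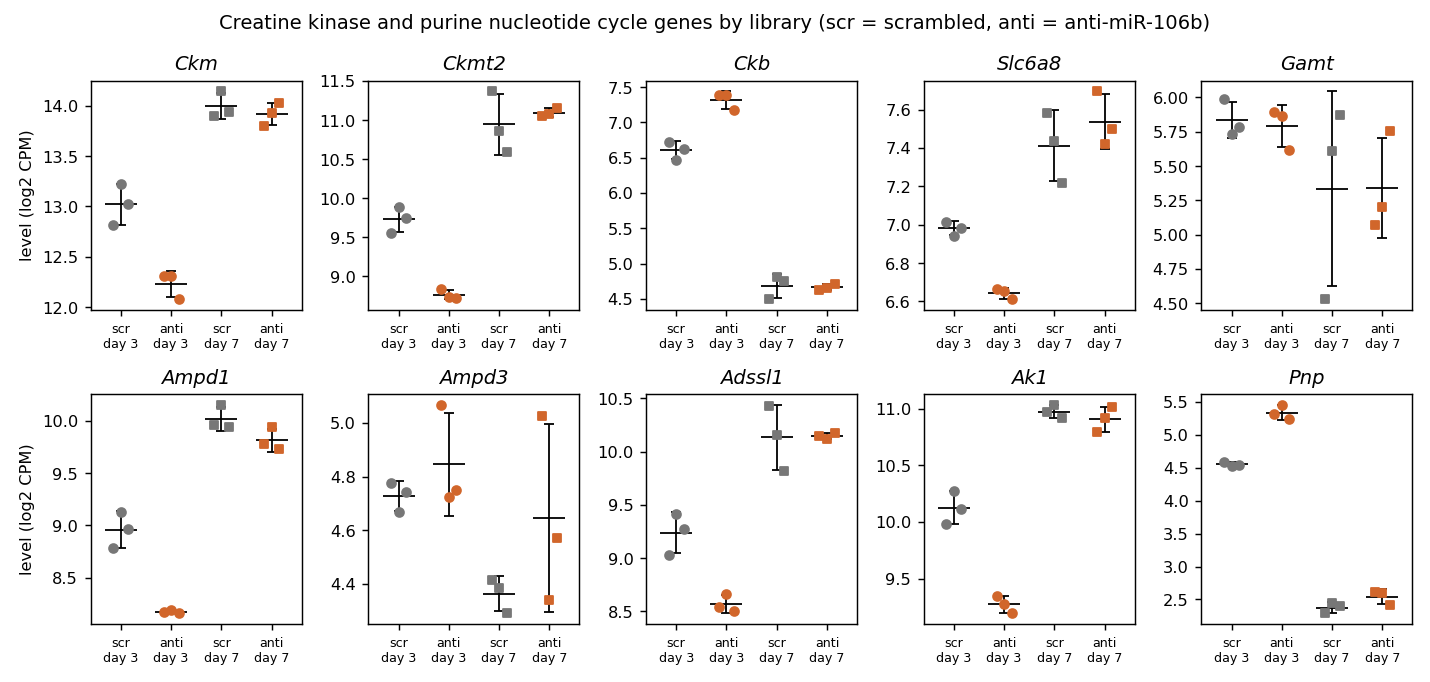
Level of each of the 10 genes (log2 CPM, vertical axis, with its own range in each panel) in the 12 libraries; points are animals, long bars are group means and error bars are the SD of 3 animals. Ckm, Ckmt2, Ampd1, Adssl1 and Ak1 lie lowest in inhibited muscle at day 3 and highest at day 7, Ckb and Pnp have the opposite order, and Gamt and Ampd3 overlap between the arms.

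At day 3, inhibited muscle had less RNA of both muscle creatine kinases and more of the brain-type one. Ckm was 1.73-fold lower, Ckmt2 1.95-fold lower and Ckb 1.64-fold higher than in scrambled muscle. Of the 10 genes, 6 passed limma's test as lower and 2 as higher, and the other 2, Gamt and Ampd3, did not pass. Over all 14063 tested genes, 35.7% passed in either direction, 19.4% as lower and 16.3% as higher. The median difference of the 10 genes was -0.51 on the log2 scale, and that of all tested genes was 0.01. The median of the 10 was -0.20 with quantile normalisation and -0.32 with scaling by total counts. The 3 inhibited and 3 scrambled libraries did not overlap for the same 8 genes, and groups did not overlap for 60.5% of all tested genes. At day 7, none of the 10 passed.

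Ckm (chromosome 7, 19404776 to 19422841, plus strand, GRCm38) was the most abundant of the 10 in all groups. Its log2 CPM in replicates 1, 2 and 3 was 12.81, 13.22 and 13.03 in scrambled muscle at day 3. In inhibited muscle at day 3 it was 12.31, 12.30 and 12.08. All 3 inhibited libraries lay below all 3 scrambled ones, and the means were 12.23 ± 0.13 and 13.02 ± 0.20 (SD, n = 3). The log2 difference was -0.79 ± 0.14 (SE; limma, adjusted p = 7.29e-04). With quantile normalisation, which gives all libraries the same distribution, the difference was -0.11 and did not pass (limma, adjusted p = 0.419). That setting assigns values by rank, and why it made the difference smaller was not tested. Quantile normalisation also took the Ckm difference between days from 0.98 to 0.09 in scrambled and from 1.69 to 0.12 in inhibited muscle. At day 7 the values were 13.90, 14.15 and 13.94 in scrambled muscle and 13.80, 13.93 and 14.02 in inhibited muscle. The day 7 ranges overlapped, with a difference of -0.08 ± 0.14 (SE; limma, adjusted p = 0.875). An antisense gene, A930016O22Rik, overlaps Ckm exons and had 3.40 to 5.14 log2 CPM, a small fraction of Ckm, and reads of the 2 cannot be told apart if strand was not counted.

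Ckmt2 (chromosome 13, 91853387 to 91876885, minus strand) sits at the inner mitochondrial membrane, where it charges creatine with newly made ATP. It had the lowest difference of the 10 at day 3. Replicates 1, 2 and 3 had 9.56, 9.88 and 9.75 log2 CPM in scrambled muscle and 8.83, 8.74 and 8.73 in inhibited muscle. The groups were apart by more than their spread, with means of 9.73 ± 0.16 and 8.77 ± 0.06 (SD, n = 3) and a difference of -0.96 ± 0.15 (SE; limma, adjusted p = 3.74e-04). At day 7 scrambled muscle had 11.37, 10.86 and 10.60, the widest spread of Ckmt2 in any group, and inhibited muscle had 11.05, 11.07 and 11.16. The inhibited values all lay inside the scrambled range, and the difference was 0.15 ± 0.15 (SE; limma, adjusted p = 0.762). The highest of these libraries, scrambled replicate 1, is the one with the lowest regenerating fibre sum.

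Ckb (chromosome 12, 111669361 to 111672338, minus strand) went the other way at day 3. It measured 6.72, 6.47 and 6.62 log2 CPM in scrambled replicates 1, 2 and 3 and 7.39, 7.39 and 7.18 in the inhibited ones. The lowest inhibited library exceeded the highest scrambled one, and the difference was 0.72 ± 0.09 (SE; limma, adjusted p = 1.40e-04). By day 7 Ckb was at 4.49, 4.82 and 4.75 in scrambled muscle and 4.63, 4.65 and 4.71 in inhibited muscle, with a difference of -0.02 ± 0.09 (SE; limma, adjusted p = 0.961). The other mitochondrial isoform, Ckmt1, had 1 to 8 reads in any library and was not tested.

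Within a library, the ratio of Ckm to Ckb does not depend on a factor that scales the whole library. The ratio is of CPM and not per length. Quantile normalisation is no such factor, since it changes values by rank: there Ckm differed by -0.11 and Ckb by 0.78 at day 3. Scrambled muscle at day 3 had 68.4, 107 and 84.7 times as much Ckm as Ckb, and inhibited muscle had 30.2, 30.1 and 29.8 times as much. The 3 inhibited libraries were within a narrow range below all scrambled ones. On the log2 scale the difference was -1.51 (exact permutation test, p = 0.1, two-sided, the smallest p that 3 animals against 3 allow, and 0.244 adjusted over 22 ratio comparisons). At day 7 the ratio was 586 to 679 in scrambled muscle and 574 to 635 in inhibited muscle, and the ranges overlapped. Per kilobase of exon, Ckb made up 0.988% ± 0.21 of the summed creatine kinase level in scrambled muscle at day 3 and 2.76% ± 0.020 in inhibited muscle (SD, n = 3). At day 7 its share was 0.128% ± 0.017 and 0.129% ± 0.0056. Ckmt2 held 16.5% ± 0.35 and 14.7% ± 0.94 at day 3, and Ckm the rest, at 82.5% ± 0.56 in scrambled and 82.5% ± 0.92 in inhibited muscle. The log2 ratio of Ckm to Ckmt2 was 3.26 to 3.33 in scrambled and 3.35 to 3.57 in inhibited muscle at day 3, higher without overlap (difference 0.17, exact permutation test, p = 0.1, adjusted p = 0.244), and at day 7 it overlapped. The cytosolic muscle isoform kept most of the level in both arms while the share of the brain-type isoform differed by more than its spread. With the shortest coding transcript of each gene as its length, Ckmt2 held 7.76% and 6.84% at day 3 and Ckb 0.912% and 2.53%.

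**Figure D2:**
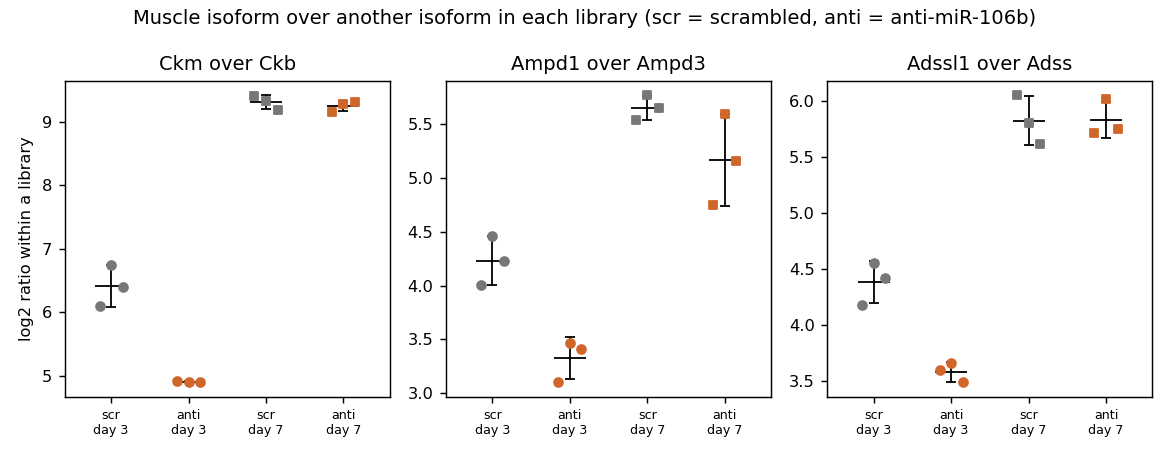
Log2 ratio of a muscle isoform to another isoform of the same enzyme within each library (vertical axis, own range in each panel); points are animals, long bars are group means and error bars are the SD of 3 animals. At day 3 the 3 inhibited libraries lie below the 3 scrambled ones for the 3 ratios shown, and at day 7 the arms overlap.

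The creatine transporter Slc6a8 (chromosome X, 73673150 to 73682502, plus strand) was lower in inhibited muscle at day 3, and the creatine-making enzyme Gamt (chromosome 10, 80258151 to 80261012, minus strand) was not distinguishable between the arms. Slc6a8 had 6.94 to 7.01 log2 CPM in scrambled and 6.61 to 6.66 in inhibited muscle. These narrow ranges did not overlap, and the difference was -0.34 ± 0.09 (SE; limma, adjusted p = 0.00963), smaller in size than that of Ckm. Scaling by total counts alone made it -0.15, which did not pass (limma, adjusted p = 0.143). At day 7 Slc6a8 had 7.22 to 7.58 and 7.42 to 7.70 log2 CPM, which overlapped (difference 0.13 ± 0.09, SE; limma, adjusted p = 0.657).

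At day 7 Gamt had the largest SD of the 10 genes in both arms. In scrambled muscle at day 7 its replicates 1, 2 and 3 had 4.53, 5.61 and 5.87 log2 CPM, and in inhibited muscle 5.07, 5.20 and 5.76. At day 3 they had 5.99, 5.74 and 5.79 in scrambled and 5.89, 5.86 and 5.61 in inhibited muscle. The arms overlapped on both days. The differences were -0.05 ± 0.26 at day 3 and 0.01 ± 0.26 at day 7 (SE; limma, adjusted p = 0.902 and 0.995). This SE pools the spread of all 4 groups. The SD in scrambled and inhibited muscle was 0.13 and 0.15 at day 3 and 0.71 and 0.36 at day 7. A difference as large as that of Slc6a8 could not be told from the pooled spread, which is wider than that of day 3. Without scrambled replicate 1 of day 7, the lowest library, the day 7 difference was -0.40 (limma, adjusted p = 0.200).

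The enzymes of the purine nucleotide cycle that are typical of muscle were lower in inhibited muscle at day 3, as was the adenylate kinase of muscle. Ampd1 (chromosome 3, 103074014 to 103099720, plus strand) had 8.78, 9.13 and 8.97 log2 CPM in scrambled replicates 1, 2 and 3 and 8.17, 8.19 and 8.16 in the inhibited ones. The inhibited libraries agree closely and all lie lower, and the difference was -0.79 ± 0.09 (SE; limma, adjusted p = 6.94e-05), or 1.72-fold. Adssl1 (chromosome 12, 112620045 to 112641360, plus strand), which makes adenylosuccinate from IMP, had 9.03 to 9.41 and 8.50 to 8.66 log2 CPM (difference -0.67 ± 0.13, SE; limma, adjusted p = 0.00149). Ak1 (chromosome 2, 32621758 to 32635058, plus strand) had 9.98 to 10.28 and 9.19 to 9.34 log2 CPM (difference -0.85 ± 0.09, SE; limma, adjusted p = 4.01e-05). Neither pair of ranges overlapped.

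At day 7 the 3 genes stood close together in the 2 arms. Ampd1 was at 9.96, 10.15 and 9.94 log2 CPM in scrambled and 9.77, 9.94 and 9.73 in inhibited muscle. The highest inhibited value lay just under the lowest scrambled one, a separation that 10.9% of all tested genes had at day 7. The Ampd1 difference of -0.20 ± 0.09 did not pass (SE; limma, unadjusted p = 0.0449, adjusted p = 0.429). For Adssl1 the difference was 0.02 ± 0.13 and for Ak1 -0.07 ± 0.09 (SE; limma, adjusted p = 0.980 and 0.832), with overlapping ranges. Adssl1 was the more variable in scrambled muscle at day 7, at 10.43, 10.15 and 9.82, and replicate 1 was again highest.

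Ampd3 (chromosome 7, 110768206 to 110812405, plus strand), the AMP deaminase that also serves red blood cells, did not pass in either comparison. It had 4.78, 4.67 and 4.74 log2 CPM in scrambled and 5.07, 4.72 and 4.75 in inhibited muscle at day 3. At day 7 it had 4.42, 4.39 and 4.29 in scrambled and 5.03, 4.34 and 4.57 in inhibited muscle. In both inhibited groups replicate 1 was the highest, and the arms overlapped on both days. The differences were 0.12 ± 0.14 and 0.28 ± 0.14 (SE; limma, adjusted p = 0.529 and 0.470). Without inhibited replicate 1 of the same day they were 0.0083 and 0.092, and without inhibited replicate 2 they were 0.18 and 0.43. This is a gene with the 8-base miR-106b-5p site shown above. Exons of Ampd3 overlap those of Rnf141 on the opposite strand, which had 4.35 to 4.81 log2 CPM, so reads of the 2 may have been mixed if strand was not counted. The log2 ratio of Ampd1 to Ampd3 was 4.23 ± 0.23 in scrambled and 3.33 ± 0.20 in inhibited muscle at day 3 (SD, n = 3), without overlap (difference -0.90, exact permutation test, p = 0.1, adjusted p = 0.244). At day 7 it was 5.54 to 5.77 and 4.75 to 5.60, with overlap.

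Pnp (chromosome 14, 50931082 to 50965237, plus strand) was higher in inhibited muscle at day 3. Its replicates 1, 2 and 3 had 4.58, 4.53 and 4.54 log2 CPM in scrambled and 5.32, 5.45 and 5.24 in inhibited muscle. Both groups were tight and well apart, and the difference was 0.79 ± 0.08 (SE; limma, adjusted p = 4.39e-05), or 1.72-fold. At day 7 it was low in both arms, at 2.29, 2.44 and 2.40 in scrambled and 2.62, 2.60 and 2.41 in inhibited muscle (difference 0.17 ± 0.08, SE; limma, adjusted p = 0.480). Pnp carries the other 8-base site shown above, and the part of such sites in these differences was not tested. Gm49342 shares exons with Pnp, and the related gene Pnp2 lies within its span. In the library where Pnp2 had most reads it had 86 and Pnp 1952, and where Pnp had fewest it had 160 and Pnp2 3. A split of reads between these genes cannot be read from the table.

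**Figure D3:**
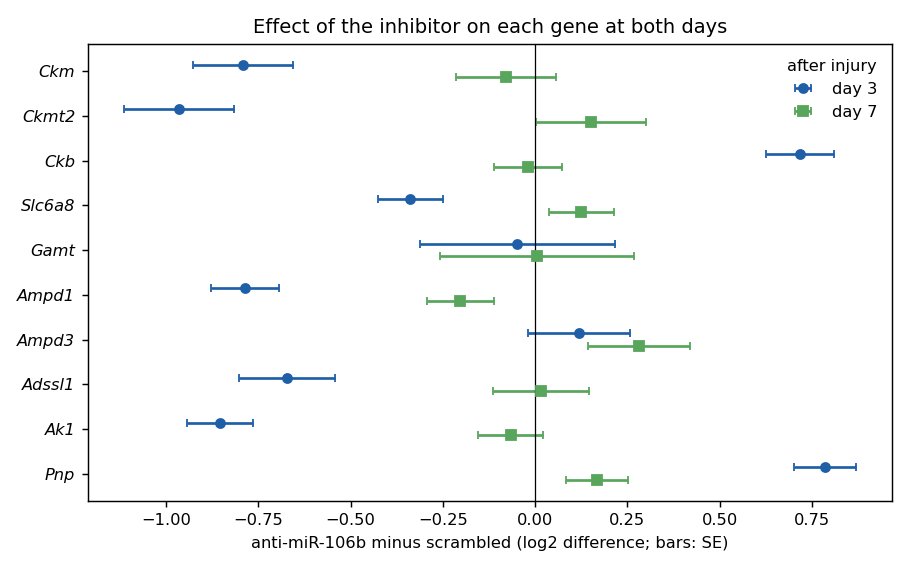
Difference between inhibited and scrambled muscle (anti-miR-106b minus scrambled, log2, horizontal axis) for each of the 10 genes at day 3 (circles) and day 7 (squares), with limma's SE as bars. At day 3 the values run from -0.96 for Ckmt2 to 0.79 for Pnp, and at day 7 from -0.20 for Ampd1 to 0.28 for Ampd3, which was 0.092 without inhibited replicate 1.

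None of the 10 genes passed at day 7 in limma's test, and 1, Ampd1, had an unadjusted p under 0.05. Over all tested genes 0.064% passed at day 7, which is 9 genes, and 1580 had an unadjusted p under 0.05. With voom weights on the reads recovered from the table, again none of the 10 passed and 1 had an unadjusted p under 0.05. Leaving out scrambled replicate 1 of day 7 raised the number over all genes from 9 to 457, leaving out scrambled replicate 2 lowered it to 0, and leaving out inhibited replicate 2 gave 70. None of the 10 genes passed under any of these.

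The effect of the inhibitor at day 7 minus that at day 3 passed limma's test for 8 of the 10 genes, 6 with a positive and 2 with a negative change. In this test 22.3% of all tested genes passed, 13.2% with a positive and 9.07% with a negative change. This comparison uses the same day 3 libraries as the results above. It is also the difference between days in inhibited muscle minus that in scrambled muscle. The genes were chosen in part on differences between days, so these passes are not independent of that choice. The changes ran from 0.46 for Slc6a8 to 1.11 ± 0.21 for Ckmt2 (SE; limma, adjusted p = 0.0184 and 0.00337) among the genes that were lower at day 3. They were -0.74 ± 0.13 for Ckb and -0.62 for Pnp (limma, adjusted p = 0.00241 and 0.00368). The change for Ckm, 0.71 ± 0.19 (SE; limma, adjusted p = 0.0179), was 0.03 with quantile normalisation (adjusted p = 0.912). It did not pass without scrambled replicate 2 of day 3, where it was 0.61, or without inhibited replicate 3 of day 3, where it was 0.64 (adjusted p = 0.0523). With scaling by total counts the change for Slc6a8 was 0.24 (limma, adjusted p = 0.114) and that for Ampd1 was 0.37 against 0.58, still past the threshold. Gamt and Ampd3 had changes of 0.05 and 0.16 that did not pass (limma, adjusted p = 0.935 and 0.580).

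Between day 3 and day 7 the genes parted in both arms, which is part of how they were chosen. In scrambled muscle Ckm was 1.97-fold, Ckmt2 2.32-fold, Ampd1 2.08-fold, Adssl1 1.86-fold, Ak1 1.80-fold and Slc6a8 1.35-fold higher at day 7. In inhibited muscle, which started lower, the same genes were 3.22-fold, 5.02-fold, 3.12-fold, 2.99-fold, 3.11-fold and 1.86-fold higher. Ckb was 3.78-fold lower at day 7 in scrambled and 6.30-fold lower in inhibited muscle, and Pnp 4.52-fold and 6.94-fold lower. Gamt was 1.42-fold and 1.36-fold lower and Ampd3 1.29-fold and 1.15-fold lower, with days overlapping for Gamt in both arms and for Ampd3 in inhibited muscle. Across all tested genes, 68.2% passed between days in scrambled and 78.7% in inhibited muscle, and days did not overlap for 72.4% and 81.1%. The sizes depended on scaling: with quantile normalisation the log2 differences of Ckm were 0.09 and 0.12, and with total counts those of Slc6a8 were 0.02 and 0.27. With total counts the median of all tested genes moved to -0.41 in scrambled and -0.65 in inhibited muscle, and at day 3 between the arms to 0.20. None of the 10 genes changed its direction between days under any alternative.

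Per kilobase of exon, the order in all 4 groups began with Ckm, then Ckmt2, Ak1, Adssl1 and Ampd1, and no neighbours among these 5 overlapped. In scrambled muscle at day 3 the levels were 2871 ± 399 CPM per kilobase for Ckm, 574 ± 64.1 for Ckmt2, 432 ± 44.0 for Ak1, 291 ± 38.1 for Adssl1 and 141 ± 16.8 for Ampd1 (SD, n = 3). The other five were at 39.7 for Gamt, 33.7 for Ckb, 24.2 for Slc6a8, 5.91 for Pnp and 4.71 for Ampd3, also without overlap. In inhibited muscle at day 3 Ckb, at 55.4 ± 4.65, stood above Gamt, at 38.4 ± 3.93. At day 7 the levels of Slc6a8 and Gamt overlapped in both arms, Ckb came next at 8.93 and 8.77, and Pnp was the lowest at 1.31 and 1.47 CPM per kilobase. The order of Ampd1, Ckmt2 and Ak1 depends on the length used. With the shortest coding transcript of each gene, Ampd1 came right after Ckm in 3 of the 4 groups. For Ampd1 that transcript has only 751 bases, against 3548 bases of exon and 808 in its longest annotated 3′ UTR. Whether it is complete was not checked, and this place of Ampd1 rests on its length. With the shortest transcripts Ckb, at 66.3, stood above Gamt, at 58.6, in scrambled muscle at day 3 as well. Both overlapped with Slc6a8, at 65.8.

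Across the 12 libraries the levels fell into sets, as a description of libraries that share group and depth. The genes were chosen in part because Ckb and Pnp fell with time and the muscle isoforms rose. The opposed sets are therefore not independent of that choice. Ckm, Ckmt2, Ampd1, Adssl1 and Ak1 correlated with each other at Pearson r from 0.967 to 0.996, and Ckb correlated with Pnp at 0.996. Ckb correlated with Ckm at -0.963. Gamt correlated with Ckm at -0.466 and Ampd3 with Ckm at -0.633. The genes most like Ckm in level over the 12 libraries were Tpm1, Lbx1, Tmod4 and Eef1a2, all at r of 0.997. For Ckb they were Sec14l1, G6pdx, Coro1b and Ncf4, from 0.998 down to 0.997. For Ampd1 they were Pygm, Plcd4, Tmem64 and Brms1l, from 0.997 down to 0.996, and for Pnp they were Lrrc15, Steap2, Postn and Parp12, from 0.998 down to 0.997. For Ampd3 the nearest were Npc1, Slc39a14, Sec23ip and Tgoln1, from 0.924 down to 0.909, the loosest match of the 5.

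Ratios to Acta1, the skeletal actin of the fibre, compare the muscle genes with fibre RNA in the same library. These ratios were chosen with the values known. At day 3 the log2 ratio to Acta1 differed between the arms by -0.27 for Ckm, -0.44 for Ckmt2, -0.26 for Ampd1 and -0.33 for Ak1, each without overlap (exact permutation test, p = 0.1 and adjusted p = 0.244 for each). For Adssl1 it differed by -0.15 and for Slc6a8 by 0.19, with overlap. At day 7 the ratio of Ak1 to Acta1 was higher in inhibited muscle by 0.16, without overlap (exact permutation test, p = 0.1, adjusted p = 0.244), and the other 5 overlapped. The ratio of Ckm to Ak1 differed by 0.06, with overlap. The 12 mature fast fibre markers, Acta1 among them, had day 3 differences from -1.01 to -0.44. A ratio to another of these markers would differ in size and could differ in direction. The lowest marker, at -1.01, lay below Ckm, Ckmt2, Ampd1 (-0.79) and Ak1 (-0.85). The median difference of the 12 was -0.72, beside -0.79 for Ckm, -0.96 for Ckmt2 and -0.34 for Slc6a8. With quantile normalisation that median was -0.09, and 5 of the 12 passed.

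The other isoforms of the same enzymes did not all go the way of the muscle forms at day 3. In the rest of the cycle, Adsl, the lyase shared by the cycle and new purine synthesis, was lower by a log2 difference of -0.42 ± 0.08 (SE; limma, adjusted p = 0.00122). Ampd2, the AMP deaminase of liver and many tissues, was higher by 0.24 (limma, adjusted p = 0.0378), a call that was lost in 8 of 22 alternatives, among them leaving out any of the 6 day 3 libraries. Adss, the adenylosuccinate synthase found outside muscle, differed by 0.13 (limma, adjusted p = 0.263). Among the other adenylate kinases, Ak3 of the mitochondrial matrix was lower, with a log2 difference of -0.27 (limma, adjusted p = 0.00291). Ak3 was at -0.08 and did not pass with total-count scaling (limma, adjusted p = 0.177). Ak6 and Ak8 differed by -0.20 and 0.74 and did not pass (limma, adjusted p = 0.154 and 0.175). Ak6 passed in 2 of 22 alternatives and Ak8 in 5, for Ak8 among them quantile normalisation (1.05) and voom weights (0.73). Both passed when only the day 3 groups were fitted (limma, adjusted p = 0.0315 for Ak6 and 0.00824 for Ak8). Within libraries, the log2 ratio of Adssl1 to Adss differed by -0.80 in inhibited muscle, without overlap (exact permutation test, p = 0.1, adjusted p = 0.244). The enzyme before Gamt in creatine synthesis, Gatm, differed by 0.42 ± 0.20, and Slc16a12, a creatine carrier, by 0.33 (limma, adjusted p = 0.119 and 0.286). Gatm passed in 4 of 22 alternatives. They were quantile normalisation, total-count scaling, the fit without scrambled replicate 1 of day 7 and the fit of only the day 3 groups. In the last of these the adjusted p was 6.50e-04 (limma).

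Of 18 tested genes that recycle or break down purines, 8 passed as higher and 3 as lower at day 3, with a median of 0.21. Over all tested genes 16.3% passed as higher and 19.4% as lower, the background for the counts of this and the following lists, none of which was tested as a list. Ada, which turns adenosine into inosine, the substrate of Pnp, was higher by 0.93 ± 0.14 (SE; limma, adjusted p = 3.88e-04). Aprt, which salvages adenine, and Nt5c, a nucleotidase, were higher by 0.61 and 0.62 (limma, adjusted p = 5.81e-04 and 9.75e-04). Adal, an adenosine deaminase-like enzyme, was lower with a log2 difference of -0.68 (limma, adjusted p = 1.37e-04). Of 13 genes that build or complete new purines, 5 passed as higher and 2 as lower, with a median of -0.06 (0.13 with total-count scaling). Ppat, the committed step of this route, differed by -0.48 (limma, adjusted p = 4.58e-04). Impdh1 and Impdh2, which lead to GMP, and Prpsap1 were higher by 0.38, 0.31 and 0.44 (limma, adjusted p = 0.00995, 0.00526 and 0.0114). Prpsap1 was just above the threshold without inhibited replicate 1 of day 3 (limma, adjusted p = 0.0507).

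AMP-activated kinase senses the AMP that Ak1 makes and Ampd1 removes. Of its 7 subunit genes, 3 passed as lower and 1 as higher at day 3. Prkaa2 and Prkab2, the catalytic and scaffold isoforms abundant in muscle, differed by -0.91 ± 0.09 and -0.89 ± 0.12 (SE; limma, adjusted p = 3.21e-05 and 1.81e-04). Prkab1, the counterpart of Prkab2, was higher by 0.30 (limma, adjusted p = 0.0118, and 0.0548 without scrambled replicate 2 of day 3). Prkag1 differed by -0.23 (limma, adjusted p = 0.0453), a call lost in 12 of 22 alternatives, which include leaving out any of the 6 day 3 libraries. Of 6 tested adenosine receptor and nucleoside transporter genes, 3 passed as higher and none as lower. They were Adora2a, Slc29a1 and Slc29a3, higher by 0.76, 0.26 and 0.50 (limma, adjusted p = 0.00263, 0.00385 and 0.0186). Adora2b differed by 0.40 and did not pass (limma, adjusted p = 0.220). It passed in 2 of 22 alternatives, among them the fit of only the day 3 groups (limma, adjusted p = 0.0296). Slc29a3 did not pass without inhibited replicate 1, scrambled replicate 2 or scrambled replicate 3 of day 3 (limma, adjusted p from 0.0543 to 0.0678).

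**Figure D4:**
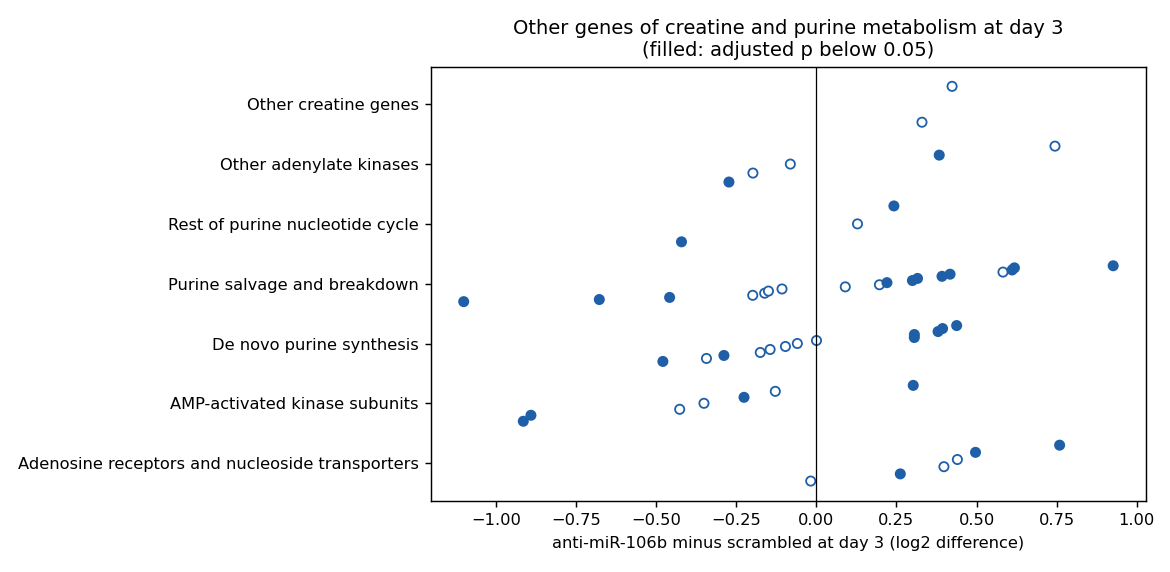
Difference between inhibited and scrambled muscle at day 3 (log2, horizontal axis) for the 54 tested genes of 7 further lists of creatine and purine metabolism (rows); each circle is a gene, filled where limma's adjusted p was below 0.05. Of the 54, 19 were filled above 0 and 10 below 0.

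Over these 7 lists, 19 of 54 tested genes passed as higher and 10 as lower at day 3, beside 16.3% and 19.4% of all tested genes, and total-count scaling made this 24 and 7. At day 7 none of the 54 passed limma's test, and 9 had an unadjusted p under 0.05. Over all 14063 tested genes 0.064% passed at day 7, and 1580 had an unadjusted p under 0.05. Between days, 20 of the 54 passed as higher and 26 as lower in scrambled muscle, and 21 and 28 in inhibited muscle. Over all tested genes 68.2% and 78.7% passed between days in either direction. With total-count scaling the split between days was 7 and 33 in scrambled muscle and 10 and 34 in inhibited muscle, so the split for these lists depends on the scaling. Of the 3 remaining genes of the cycle, Adsl was higher and Ampd2 and Adss lower at day 7 in both arms, under all 3 scalings.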

How the data were processed

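RNA from tibialis anterior was sequenced from 12 mice, 3 in each of 4 groups. The submitters' processing notes list the build mm10 and the tools STAR, featureCounts, limma 3.34.9, edgeR 3.20.9, Trim Galore 0.4.3.1 and FastQC 0.72. The authors deposited 1 table of log2 CPM (counts scaled to library size) for 28116 gene symbols, scaled between libraries. Whether counting used strand is not given in the sources used here. The table's equal steps gave back whole reads (within 0.001 of a read for 100% of values under 1000 reads), 28857739 to 42825246 per library. 1 CPM was worth 28.1 to 46.9 reads.

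A model of the 4 group means was fitted to the log2 values (limma 3.58.1, R 4.3.3), with 8 residual and 5.59 prior degrees of freedom and a variance trend. The 14063 genes at or above 1 CPM in at least 3 libraries were tested, two-sided, with Benjamini-Hochberg adjustment over all of them and a threshold of 0.05. This was checked on simulated data. The 10 genes and the other lists were chosen with earlier results of these data known. All 10 genes are named. Of each other list, up to 4 tested genes with the smallest p at day 3 are named, except that 1 gene is not reported here. For Ckm, Ckb, Ampd1, Ampd3 and Pnp, the 4 most correlated genes are named. Within-library ratios were compared with exact permutation tests. Other filters, added constants, scalings, spreads, a replicate block and leaving out each library were tried. Residuals of libraries with the same replicate number correlated at 0.03 to 0.10 at day 3 and -0.04 to 0.14 at day 7. Those with different numbers correlated at -0.06 to 0.01 at day 3 and -0.22 to 0.17 at day 7. So few values cannot settle whether the numbers mark pairs. They were not taken as pairs in the main fit.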

Additional observations from a re-analysis of the deposited data

Results flagged for a closer look

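For 8 of the 10 genes, the effect of the inhibitor differed between day 3 and day 7 in limma's test of the difference itself. Measured as the day 7 effect minus the day 3 effect on the log2 scale, the change was positive for the 6 genes that were lower in inhibited muscle at day 3. It was 0.71 for Ckm, the muscle-type creatine kinase, and 1.11 for Ckmt2, its mitochondrial partner in muscle. For Slc6a8, the creatine transporter, it was 0.46. The purine enzymes had changes of 0.58 for Ampd1, 0.69 for Adssl1 and 0.79 for Ak1. The change was negative for both genes that were higher in inhibited muscle at day 3, at -0.74 for Ckb, the brain-type creatine kinase, and -0.62 for Pnp, the purine nucleoside phosphorylase. In the same test 22.3% of all tested genes passed. The genes were chosen in part on their differences between days, from which this change follows. The test is not independent of that choice.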

How the results depend on the processing

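No call of the 10 genes at day 3 or in the change between days was lost by another filter, an added constant, an untrended variance, fitting only the groups compared, the replicate block or voom weights on recovered reads, the last chosen after seeing the data. The calls lost under quantile normalisation (Ckm), total-count scaling (Slc6a8) or without a library (Ckm, change) stand with the results. The count of genes called at day 7, 9, was 20 with a minimum of 0.5 CPM, 15 with no filter, 35 and 46 with 1 and 5 CPM added, 17 with quantile normalisation, 28 with total-count scaling, 2 when only the day 7 groups were fitted and 23 with the replicate block. Leaving out a library gave 0 to 457. The replicate block ended no call of the 10 genes, but Ampd2 and Prkag1 lost theirs (adjusted p = 0.0560 and 0.0675). The count for the change between days, 3134, was 2063 to 4555 without a library, the lowest without scrambled replicate 2 of day 3. Total-count scaling moved the split of higher and lower genes from 2296 and 2726 to 5165 and 1392 at day 3, from 1858 and 1276 to 874 and 3487 for the change, and between days to 1525 and 8550 (scrambled) and 2183 and 9555 (inhibited) from 4624 and 4963 and from 5331 and 5736. Quantile normalisation gave 6079 and 3939 and 6462 and 4797 between days. At day 7 the split was 1 and 8, and 6 and 11 with quantile normalisation, 6 and 22 with total counts.

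Some uncalled values changed sign. Gamt at day 3 was 0.14 with total counts and -0.099 to 0.040 without a library. At day 7 Gamt was -0.0045 with 5 CPM added, -0.031 with quantile normalisation, -0.023 with total counts and -0.40 to 0.27 without a library. Its change between days was -0.16 with total counts and -0.35 to 0.32 without a library. The change for Ampd3 was -0.054 with total counts and -0.027 to 0.32 without a library. Adssl1 at day 7 was -0.010 with quantile normalisation, -0.013 with total counts and -0.14 to 0.16 without a library. Without a library, Ckmt2 at day 7 was -0.023 to 0.37 and Ckb -0.12 to 0.046. The causes were not tested. The planned count-model tests were not run on the recovered reads.

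With 3 animals a group, an exact test of a ratio cannot go below p = 0.1. Each of the 10 genes had at least 160 reads in each library.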
